A study of Mus musculus with 6 samples.

Results

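Elastic fibres are the part of the extracellular matrix that lets skin, arteries and lung recoil. They form outside the cell, where tropoelastin is deposited on a scaffold of fibrillin microfibrils, guided by fibulins and crosslinked by lysyl oxidases. Dermal fibroblasts make most of these components, and fibrillin microfibrils also hold latent TGF-β complexes in the matrix. The 10 genes examined here are elastin (Eln), the fibrillins Fbn1 and Fbn2, the microfibril-associated proteins Mfap2 and Mfap4, the fibulins Fbln1, Fbln2, Fbln5 and Efemp2 (fibulin-4), and Emilin1. They were chosen by name, and each has 1 row among the 22162 genes of the table.

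RNA was sequenced from mouse skin fibroblasts (MSFs) of FASST mice on the FVB/N strain. All 6 samples carry a TAM-inducible Cre driven by a regulatory sequence of the pro-alpha 2(I) collagen gene, together with a p27Kip1 allele at ROSA26 that Cre switches on. In 3 samples, named TAM and labelled senescent, the cells received 10 µM tamoxifen (TAM), which the study's methods give as a treatment of 48 h. In the other 3, named EtOH and labelled non-senescent, they received the ethanol vehicle. No vehicle-treated or TAM-treated cells without the transgene are among the 6 samples, so effects of TAM itself and of the induced allele cannot be told apart. The study's methods describe isolation from the dorsal skin of 1 female mouse and give no age for it, and no label says that replicates came from separate animals, so p-values here measure the spread between these samples only.

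Values are normalized counts per gene as deposited, summing to between 14952367 and 17314953 per library. Of all genes, 11877 reached 1 c.p.m. (16.2 normalized counts, from the mean library sum) in at least 3 libraries and were tested with limma on log2(normalized counts + 1), with Benjamini-Hochberg adjustment over all of them. Without the replicate number as a block, 29 genes (0.244%) passed an adjusted p of 0.05, 0.168% of those tested higher and 0.0758% lower in TAM. When the replicate number entered as a block, 192 (1.62%) passed, 1.00% higher and 0.615% lower. The libraries expressed all 9 fibroblast markers of the list, among them Col1a1, Col1a2 and Col3a1, while the 9 keratinocyte markers summed to between 66.4 and 130 normalized counts per library. Cdkn1b, the mouse p27Kip1 gene, had 1427, 3074 and 1853 normalized counts in EtOH replicates 1, 2 and 3 and 1699, 1520 and 1630 in the TAM replicates. It was thus not higher in the TAM libraries as a group, and whether transgene reads count towards it is not given in the sources used here.

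The elastic fibre genes did not differ in 1 direction. Elastin, Fbn1, Mfap2 and Mfap4 were lower in the TAM libraries, with no overlap between the groups, at ratios of EtOH to TAM means of 11.5, 2.12, 1.99 and 2.50. Fbln2 and Efemp2 were higher, also without overlap, at ratios of TAM to EtOH means of 1.64 and 1.55. Fbn2, present at a low level, was higher in TAM in each of the 3 pairs of same-numbered libraries, and Fbln1, Fbln5 and Emilin1 overlapped between the groups. Without the block 0 of the 10 passed the adjusted limma threshold (background 0.244%), and with it 1, Fbn2, passed (background 1.62%). Fbn2 reached 1 c.p.m. in all 3 TAM libraries and in 1 EtOH library, and Eln in the 3 EtOH libraries alone, so both entered the test through the group in which they were high, and the counts over the 10 are a description. At an unadjusted p under 0.05 there were 2 higher and 4 lower without the block, 6 of 10, against 13.4% of all genes tested (6.67% higher, 6.70% lower). The block made this 3 higher and 4 lower, against 17.0% (8.64% higher, 8.32% lower). Groups did not overlap for 6 of the 10, against 20.6% of all genes tested (9.19% with TAM above, 11.4% with TAM below). All 3 pairs differed in 1 direction for 8 of the 10, against 41.9% of all genes tested. No test of the list was made. The median log2 fold change of the 10 was 0.27, with a range from −3.08 to 2.30, beside −0.03 over all genes tested. In bulk RNA, fewer cells making a transcript and less transcript per cell cannot be told apart.

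**Figure D1:**
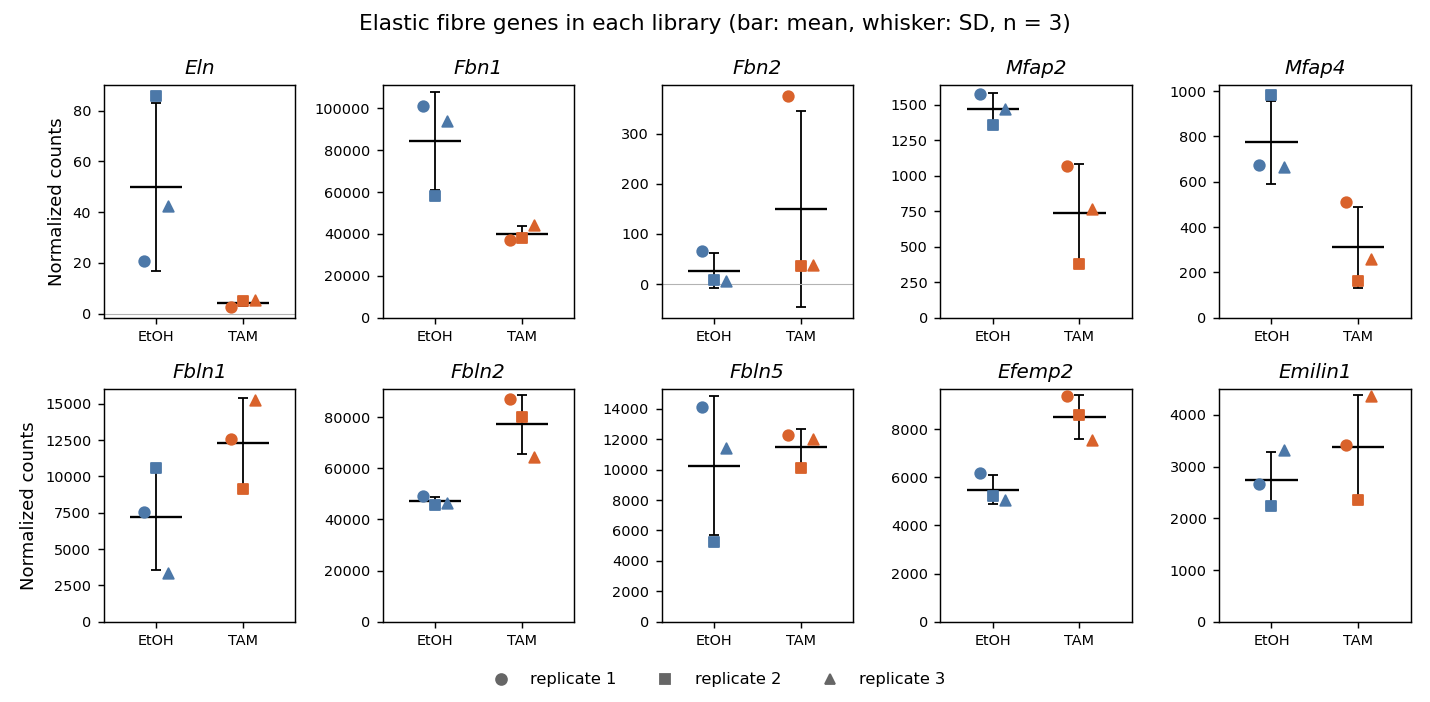
Normalized counts (linear axes, each with its own range) of the 10 elastic fibre genes in the 3 EtOH (blue) and 3 TAM (orange) libraries. Markers give the replicate number, bars the mean and whiskers the SD (n = 3). For Eln, Fbn1, Mfap2 and Mfap4 all TAM points lie below all EtOH points, and for Fbln2 and Efemp2 all lie above them.

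The start regions of the genes without overlap between groups are shown because these genes differed in opposite directions. Promoter sequences of RefSeq (build GRCm38.p6, from the C57BL/6J strain, whereas the cells are FVB/N) were matched by symbol for 7 of the 10 genes. Eln, Fbn2 and Mfap4 had no entry. The 250 bases before the first listed start are printed 5′ to 3′ for Fbn1 (chr2:125506439-125506688, minus strand), Mfap2 (chr4:141010431-141010680, plus strand), Fbln2 (chr6:91212514-91212763, plus strand) and Efemp2 (chr19:5473696-5473945, plus strand). Capitals mark GC boxes, the letters GGGCGG on either strand.
Fbn1: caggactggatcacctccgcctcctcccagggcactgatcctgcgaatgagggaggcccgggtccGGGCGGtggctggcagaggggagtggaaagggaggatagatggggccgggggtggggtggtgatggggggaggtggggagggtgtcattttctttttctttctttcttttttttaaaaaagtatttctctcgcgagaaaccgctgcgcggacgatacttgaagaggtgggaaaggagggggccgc
Mfap2: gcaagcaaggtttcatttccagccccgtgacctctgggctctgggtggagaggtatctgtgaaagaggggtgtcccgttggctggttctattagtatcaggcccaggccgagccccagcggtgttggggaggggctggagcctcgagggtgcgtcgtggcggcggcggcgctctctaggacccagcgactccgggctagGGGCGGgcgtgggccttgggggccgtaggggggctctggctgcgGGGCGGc
Fbln2: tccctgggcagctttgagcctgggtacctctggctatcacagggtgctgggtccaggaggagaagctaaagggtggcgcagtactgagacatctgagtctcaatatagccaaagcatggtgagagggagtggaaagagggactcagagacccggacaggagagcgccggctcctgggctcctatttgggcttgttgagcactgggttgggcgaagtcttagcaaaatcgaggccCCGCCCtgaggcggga
Efemp2: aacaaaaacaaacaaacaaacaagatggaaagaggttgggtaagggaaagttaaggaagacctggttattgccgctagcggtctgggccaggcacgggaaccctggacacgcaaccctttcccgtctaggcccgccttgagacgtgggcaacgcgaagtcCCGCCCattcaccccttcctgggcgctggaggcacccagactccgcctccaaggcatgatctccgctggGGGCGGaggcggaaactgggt
The pair with lower values in TAM (Fbn1 and Mfap2) and the pair with higher values (Fbln2 and Efemp2) both held GC boxes, which 32.7% of the 32851 listed promoters hold in the same window. Across the 7 matched genes, 5 held a GC box and 0 held the TATA box letters TATAAA, which 12.4% of all promoters hold. The AP-1 letters TGANTCA were in 0 of the 7, against 6.7% of all promoters, and the SMAD letters CAGACA were in Fbln1 and Emilin1, against 17.1%. The CCAAT letters were in Fbln5 alone of the 7, against 33.8%. Both strands were searched, and a match is a description of the letters only.

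Eln encodes tropoelastin, the monomer of the elastic core (ENSMUSG00000029675, chromosome 5 of mm9, 135179651 to 135223111, minus strand, 37 exon blocks). Its normalized counts were 20.9, 86.0 and 42.6 in EtOH replicates 1, 2 and 3, and 2.63, 5.01 and 5.37 in the TAM replicates. Every TAM library was thus below the lowest EtOH library, and all 6 values were small. In TAM replicate 2, the only library whose low values fall on whole-read steps (0.837 normalized counts a read), Eln stood at 6 reads. Their exact Poisson 95% interval, which covers counting error only, was 1.84 to 10.9 normalized counts and ended below the lowest EtOH value. The log2 fold change was −3.08 (SE 0.63, 95% interval −4.55 to −1.60, limma adjusted p = 0.131), where the block gave an SE of 0.47 and an adjusted p of 0.0543. It was −2.60, −3.86 and −2.77 in pairs 1, 2 and 3. Eln reached 1 c.p.m. in all 3 EtOH libraries and in no TAM library, so its test depends on the group in which it was high. The added 1 also shrinks a difference between values this low, and with 10 added in its place the log2 fold change was −1.91.

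By exon length, Eln was also scarce in the vehicle-treated cells. It had 19.3 ± 12.8 (SD, n = 3) normalized counts per kb of exon in the EtOH libraries, against 6958 ± 1915 (SD, n = 3) for Fbn1, the scaffold on which elastin is laid. In the TAM libraries Eln had 1.68 ± 0.576 (SD, n = 3) per kb. The per-length ratio of Eln to Fbn1 would not change with a common factor per library. Whether the deposited scaling was such a factor is not given in the sources used here. This ratio was 0.000971, 0.00698 and 0.00213 in EtOH replicates 1, 2 and 3 and 0.000333, 0.000615 and 0.00057 in the TAM replicates. So elastin was lower in TAM also relative to Fbn1, itself lower, and the groups did not overlap. On the log2 scale this ratio differed by −2.32 between groups (two-sided exact permutation p = 0.1, the smallest that 3 against 3 libraries allow, and 0.25 when adjusted over the 5 ratios compared).

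Fbn1, fibrillin-1, forms the backbone of microfibrils in adult tissue (ENSMUSG00000027204, chromosome 2 of mm9, 125126330 to 125332121, minus strand, 65 exon blocks). It had 101242, 57892 and 94024 normalized counts in EtOH replicates 1, 2 and 3, and 37104, 38267 and 44200 in the TAM replicates. The EtOH libraries varied more, at 84386 ± 23226 (SD, n = 3), than the TAM libraries, at 39857 ± 3806 (SD, n = 3), and the groups did not overlap. Its log2 fold change was −1.04 (SE 0.32, 95% interval −1.80 to −0.29, limma adjusted p = 0.247), and all 3 pairs were lower in TAM. Averaged over the 6 libraries, Fbn1 ranked 18 among the genes tested, and it took 0.334% to 0.601% of the normalized counts in the EtOH libraries and 0.235% to 0.296% in the TAM libraries. Antisense to Fbn1 lies Gm9913, which covers 20.1% of its exon sequence, and the strand setting of the authors' counting is not given in the sources used here, so that share of Fbn1 cannot be assigned to a strand.

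Mfap2, also called MAGP-1, binds fibrillins and is an integral microfibril protein (ENSMUSG00000060572, chromosome 4 of mm9, 140566339 to 140571898, plus strand, 10 exon blocks). It had 1579, 1357 and 1473 normalized counts in EtOH replicates 1, 2 and 3 and 1070, 380 and 765 in the TAM replicates. The EtOH values lay close together and all above the TAM values, among which replicate 2 was the lowest. For Mfap2 the log2 fold change was −1.11 (SE 0.36, 95% interval −1.96 to −0.26, limma adjusted p = 0.264), and −0.70 without TAM replicate 2.

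Mfap4 binds elastin and fibrillin and is found along dermal elastic fibres (ENSMUSG00000042436, chromosome 11 of mm9, 61298933 to 61302402, plus strand, 6 exon blocks). Its normalized counts were 673, 985 and 664 in EtOH replicates 1, 2 and 3 and 511, 161 and 257 in the TAM replicates. TAM replicate 2 was again the lowest, and the pair of replicates 1 differed least, by −0.39 on the log2 scale against −2.61 and −1.37 in pairs 2 and 3. For Mfap4 the log2 fold change was −1.46 (SE 0.42, 95% interval −2.43 to −0.48, limma adjusted p = 0.221). The per-length ratio of Mfap4 to Mfap2 differed by −0.35 on the log2 scale, with overlapping groups (exact permutation p = 0.4), so a difference between Mfap4 and Mfap2 in their response was not detectable here. Antisense to Mfap4, Mapk7 covers 4.6% of its exon sequence.

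Fbn2, fibrillin-2, is the fibrillin best known from developing tissue (ENSMUSG00000024598, on the minus strand of chromosome 18, 65 exon blocks). It had 66.2, 8.52 and 6.04 normalized counts in EtOH replicates 1, 2 and 3 and 376, 36.0 and 37.8 in the TAM replicates. Both replicates numbered 1 stood well above the other libraries of their group, so the groups overlapped, while each TAM library exceeded the EtOH library of the same number. The log2 differences were 2.49, 1.96 and 2.46 in pairs 1, 2 and 3, and the log2 fold change was 2.30. Without the block its SE was 1.16 (95% interval −0.43 to 5.04, limma adjusted p = 0.45), and with the block 0.31 (95% interval 1.52 to 3.09, limma adjusted p = 0.045). The blocked call was lost without pair 1 (log2 fold change 2.21, limma adjusted p = 0.182) and without pair 3 (2.22, limma adjusted p = 0.125). It was kept without pair 2 (2.48, limma adjusted p = 0.0116). Without the block, leaving out TAM replicate 1 gave a log2 fold change of 1.20, and leaving out EtOH replicate 1 gave 3.32. The EtOH values of replicates 2 and 3 were under 1 c.p.m. and rest on few reads.

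The fibrillins thus differed in opposite directions from very unequal starting levels. Per kb of exon, Fbn2 had 2.57 ± 3.25 (SD, n = 3) normalized counts in the EtOH and 14.3 ± 18.7 (SD, n = 3) in the TAM libraries, against 6958 and 3286 for the means of Fbn1. The per-length ratio of Fbn2 to Fbn1 was 0.000757, 0.00017 and 7.43e-05 in EtOH replicates 1, 2 and 3 and 0.0117, 0.00109 and 0.000989 in the TAM replicates. All TAM ratios were above all EtOH ratios, by 3.96, 2.68 and 3.73 on the log2 scale in pairs 1, 2 and 3. The mean log2 difference was 3.46 (exact permutation p = 0.1, 0.25 when adjusted over the 5 ratios). It was 2.29 without TAM replicate 1 and 4.37 without EtOH replicate 1. Fbn1 remained the far more abundant fibrillin in each of the 6 libraries. No near-identical coding transcript of another gene was found for Fbn2.

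Fibulins are calcium-binding glycoproteins of the matrix, some of which bind tropoelastin, fibrillin or lysyl oxidases. Fbln2, fibulin-2, binds fibrillin-1 and elastin (ENSMUSG00000064080, chromosome 6 of mm9, 91162449 to 91222534, plus strand, 20 exon blocks). It had 49122, 45593 and 46567 normalized counts in EtOH replicates 1, 2 and 3 and 87076, 79895 and 64294 in the TAM replicates. The EtOH libraries differed little from each other and all lay below the TAM libraries. Fbln2 had a log2 fold change of 0.70 (SE 0.28, 95% interval 0.05 to 1.35, limma adjusted p = 0.339).

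Efemp2, fibulin-4, brings lysyl oxidase to tropoelastin and is required for elastic fibre assembly (ENSMUSG00000024909, chromosome 19 of mm9, 5473973 to 5477578, plus strand, 11 exon blocks). Its normalized counts were 6173, 5221 and 5059 in EtOH replicates 1, 2 and 3 and 9383, 8598 and 7553 in the TAM replicates. The pairs agreed closely, with log2 differences of 0.60, 0.72 and 0.58 in pairs 1, 2 and 3. Efemp2 had a log2 fold change of 0.63 (SE 0.19, 95% interval 0.20 to 1.07, limma adjusted p = 0.233).

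Fbln5, which carries tropoelastin to microfibrils and is likewise required for elastic fibres (ENSMUSG00000021186, chromosome 12 of mm9, 102984775 to 103057265, minus strand, 11 exon blocks), showed no such pattern. It had 14129, 5249 and 11402 normalized counts in EtOH replicates 1, 2 and 3 and 12304, 10095 and 12016 in the TAM replicates. EtOH replicate 2 was low and the TAM libraries fell inside the EtOH range. The log2 fold change of 0.27 (SE 0.37, 95% interval −0.60 to 1.15, limma adjusted p = 0.798) became −0.15 without EtOH replicate 2, 0.56 without EtOH replicate 1 and 0.41 without EtOH replicate 3. The interval leaves room for differences in either direction. The per-length ratio of Fbln5 to Efemp2 differed by −0.36 on the log2 scale and overlapped between groups (exact permutation p = 0.4).

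Fbln1, fibulin-1, is found in the elastic core and in basement membranes (ENSMUSG00000006369, chromosome 15 of mm9, 85036379 to 85116965, plus strand, 19 exon blocks). It had 7565, 10608 and 3376 normalized counts in EtOH replicates 1, 2 and 3 and 12554, 9143 and 15292 in the TAM replicates. The groups overlapped because of replicates 2, in which TAM was the lower. Its log2 fold change was 0.90 (SE 0.43, 95% interval −0.12 to 1.92, limma adjusted p = 0.434), and 0.43 without EtOH replicate 3. The per-length ratio of Fbln2 to Fbln1 differed by −0.20 (exact permutation p = 0.9) and changed sign when EtOH replicate 3 or TAM replicate 3 was left out.

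Emilin1, a glycoprotein at the interface of elastin and microfibrils that also restrains TGF-β processing (ENSMUSG00000029163, chromosome 5 of mm9, 31215775 to 31223651, plus strand, 5 exon blocks), had 2655, 2246 and 3319 normalized counts in EtOH replicates 1, 2 and 3. In the TAM replicates it had 3424, 2352 and 4367. Each pair was higher in TAM, by 0.37, 0.07 and 0.40 on the log2 scale, within overlapping groups. Over all libraries the log2 fold change was 0.28 (SE 0.27, 95% interval −0.36 to 0.92, limma adjusted p = 0.706). It was 0.07 without TAM replicate 3, 0.14 without EtOH replicate 2, 0.42 without EtOH replicate 3 and 0.52 without TAM replicate 2.

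**Figure D2:**
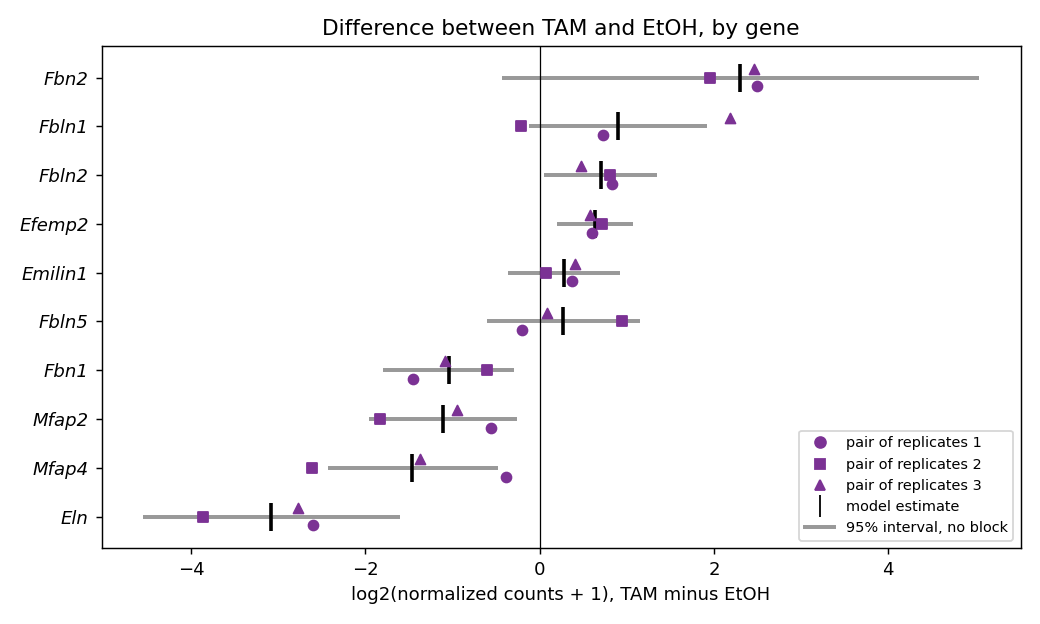
Differences in log2(normalized counts + 1), TAM minus EtOH, for the 10 genes in order of the model estimate (black ticks), with the 95% interval of limma without the block (grey). Purple markers are the 3 pairs of same-numbered libraries. Eln, Mfap4, Mfap2 and Fbn1 lie below 0 in all pairs. Fbn2, Fbln2, Efemp2 and Emilin1 lie above 0 in all pairs, with a wide unblocked interval for Fbn2.

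Per exon length, the summed signal of the 10 genes overlapped between groups, was higher in TAM in each of the 3 pairs, and differed in makeup. It was 25400, 19954 and 22568 normalized counts per kb in EtOH replicates 1, 2 and 3 and 28286, 24703 and 24656 in the TAM replicates. Fbn1 made up 32.9%, 23.9% and 34.4% of it in EtOH replicates 1, 2 and 3 and 10.8%, 12.8% and 14.8% in the TAM replicates. Fbln2 made up 32.9%, 38.9% and 35.1% in EtOH replicates 1, 2 and 3 and 52.4%, 55.0% and 44.4% in the TAM replicates. In EtOH replicates 1 and 3 Fbn1 and Fbln2 thus stood at close levels per length, and in every TAM library Fbln2 was the highest of the 10. Efemp2 made up 8.47% to 9.88% in EtOH and 11.6% to 13.1% in TAM. In mean level per kb, the EtOH order ran from Fbln2 (8015 ± 310) and Fbn1 (6958 ± 1915) through Efemp2 (2071 ± 227), Fbln5 (1760 ± 780), Fbln1 (1644 ± 831), Mfap2 (1213 ± 91.7), Emilin1 (555 ± 110) and Mfap4 (403 ± 94.9) to Eln and Fbn2 (SD, n = 3 for each). Fbln2 and Fbn1, and each pair of neighbours from Efemp2 to Mfap2, differed by less than the larger of their SDs. In the TAM libraries the order was Fbln2 (13119 ± 1982), Fbn1 (3286 ± 314), Efemp2 (3214 ± 347), Fbln1 (2823 ± 705), Fbln5 (1968 ± 206), Emilin1 (685 ± 204), Mfap2 (609 ± 286), Mfap4 (161 ± 94.3), Fbn2 and Eln (SD, n = 3 for each), and there Fbn1 and Efemp2, Efemp2 and Fbln1, Emilin1 and Mfap2, and Fbn2 and Eln differed by less than the larger SD.

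**Figure D3:**
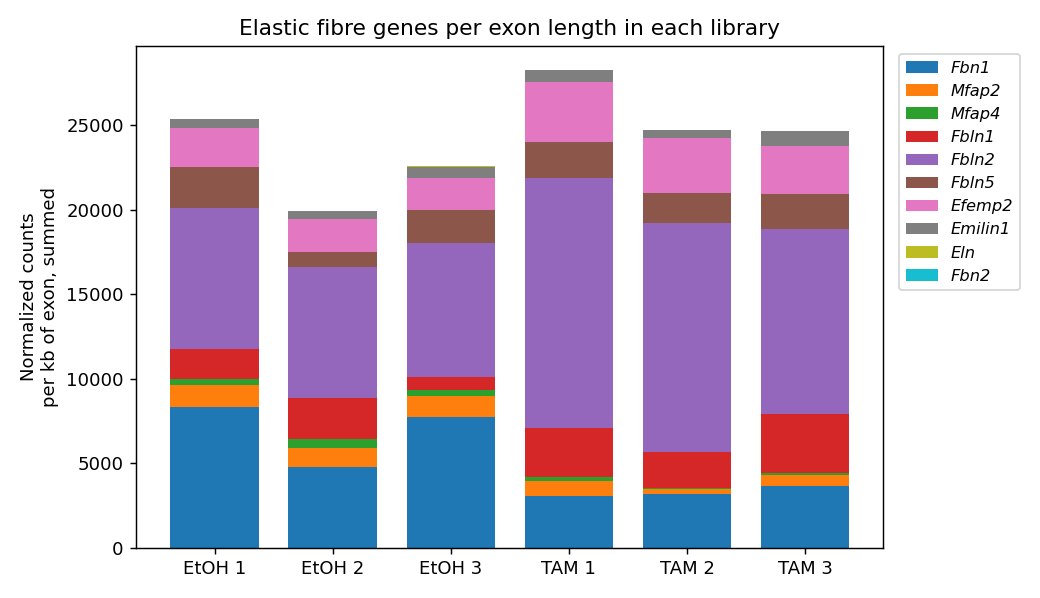
Normalized counts per kb of exon of the 10 elastic fibre genes, stacked for each library. The Fbn1 segment is smaller and the Fbln2 segment larger in the 3 TAM libraries, while Eln and Fbn2 are too low to be read from the bars.

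Genes that act with elastic fibres were read from the same fit, in 8 lists of 82 genes of which 67 were tested. Without the block 0 of the 67 passed the adjusted limma threshold (0.244% of all genes tested did). At an unadjusted p under 0.05 there were 9 higher and 8 lower, 25.4% of the 67 against 13.4% of all genes tested (6.67% higher, 6.70% lower). With the block 3 passed, 4.48% beside 1.62% of all genes tested. Ltbp2 was higher, and Adamtsl1 and Col5a3 were lower. Groups did not overlap for 34.3% of the 67, against 20.6% of all genes tested.

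Among 13 tested microfibril partners the median log2 fold change was −0.08. Ltbp2, a latent TGF-β binding protein family member that competes for fibrillin-1 and does not bind latent TGF-β, had 104, 670 and 231 normalized counts in EtOH replicates 1, 2 and 3 and 1040, 3444 and 714 in the TAM replicates. All TAM values were above all EtOH values. Its log2 fold change was 2.43 (SE 0.79, limma adjusted p = 0.262, blocked SE 0.34 and adjusted p = 0.0461). Ltbp4, which promotes elastic fibre assembly with fibulin-5, had 917, 1274 and 1703 normalized counts in EtOH replicates 1, 2 and 3 and 444, 442 and 799 in the TAM replicates. The log2 fold change of Ltbp4 was −1.22 (limma adjusted p = 0.197, blocked 0.0505). Emilin2, a relative of Emilin1, had a log2 fold change of −1.05 (limma adjusted p = 0.147, blocked 0.0604), with no overlap between groups. Fbln7 had a log2 fold change of −1.56 and overlapping groups, with 38.5 normalized counts in TAM replicate 2 and 1986 in TAM replicate 1.

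All 5 lysyl oxidase genes, whose products crosslink elastin and collagen, had positive log2 fold changes, from 0.30 to 1.35, with a median of 0.82. None passed the adjusted test with or without the block, and 4 without it and 3 with it had an unadjusted p under 0.05, all higher, against 6.67% and 8.64% of all genes tested. Loxl4 had 78.7, 141 and 57.4 normalized counts in EtOH replicates 1, 2 and 3 and 220, 341 and 145 in the TAM replicates (log2 fold change 1.35, limma adjusted p = 0.258, blocked 0.0528). Loxl3 and Loxl2 had log2 fold changes of 0.99 and 0.82, and the groups of all but Lox did not overlap, with TAM above, as for 9.19% of all genes tested.

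Of 7 tested Adamts and Adamtsl genes, several of whose products bind fibrillin-1, 3 had an unadjusted p under 0.05 in the lower direction and 1, Adamts6, in the higher, against 6.70% and 6.67% of all genes tested. Adamtsl1 had 3351, 2031 and 6854 normalized counts in EtOH replicates 1, 2 and 3 and 710, 307 and 1914 in the TAM replicates. Its log2 fold change was −2.27 (SE 0.70, limma adjusted p = 0.247, blocked SE 0.22 and adjusted p = 0.0242). Thsd4 (ADAMTSL6), which promotes fibrillin-1 assembly, had 1953, 1857 and 1708 normalized counts in EtOH replicates 1, 2 and 3 and 254, 746 and 647 in the TAM replicates. The log2 fold change of Thsd4 was −1.88 (limma adjusted p = 0.132, blocked 0.0876). Adamtsl2 had a log2 fold change of −2.64 and Adamts6 one of 0.45, and neither passed the adjusted test.

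The list of elastin-degrading enzymes and other proteases had a median log2 fold change of −0.07 over 8 tested, and none passed the adjusted test. Mmp12, macrophage elastase, had at most 7.53 normalized counts in any library, and Mmp7 was listed at 0 in all 6. Ctsd, a lysosomal protease, had a log2 fold change of 0.75 (limma adjusted p = 0.185), Ctsb 0.26 and Mmp14 −0.23.

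Of 10 tested chaperones and elastin receptor genes none passed the adjusted test, and the median log2 fold change was 0.06. Hspa5, the chaperone BiP of the endoplasmic reticulum, had 22484, 60659 and 25378 normalized counts in EtOH replicates 1, 2 and 3 and 9259, 13205 and 7445 in the TAM replicates (log2 fold change −1.75, limma adjusted p = 0.182, blocked 0.0501). P4hb had a log2 fold change of −0.84, with 62928 normalized counts in EtOH replicate 2 and 23373 and 22805 in EtOH replicates 1 and 3. Neu1 had one of −0.53 in overlapping groups, with 911 in EtOH replicate 2 and 305 to 389 in all other libraries. Integrin chains of microfibril receptors had a median of 0.38 over 7 tested. Itga9 had 58.4, 47.6 and 22.9 normalized counts in EtOH replicates 1, 2 and 3 and 141, 208 and 131 in the TAM replicates (log2 fold change 1.94, limma adjusted p = 0.131, blocked 0.0667). Itga5 and Itgb1 had log2 fold changes of 0.57 and 0.50 in overlapping groups, with TAM replicate 2 at 24416 and 35908 normalized counts. TAM replicates 1 and 3 had 3066 and 4563 for Itga5 and 17115 and 18156 for Itgb1.

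TGF-β induces elastin and fibrillar collagens in fibroblasts. Of 10 TGF-β ligands, receptors and targets tested none passed the adjusted test, with a median log2 fold change of 0.14. Tgfbr2, the type II receptor, had a log2 fold change of −1.16 (limma adjusted p = 0.29, blocked 0.0757). Ctgf, a target gene, had 9177, 8567 and 1827 normalized counts in EtOH replicates 1, 2 and 3 and 3883, 51349 and 3723 in the TAM replicates (log2 fold change 0.79, limma adjusted p = 0.804), and was highest in TAM replicate 2.

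Of 7 fibrillar collagen genes 6 had a negative log2 fold change, with a median of −0.77. Col5a3 had 1984, 3554 and 2271 normalized counts in EtOH replicates 1, 2 and 3 and 649, 1401 and 782 in the TAM replicates. The log2 fold change of Col5a3 was −1.50 (SE 0.34, limma adjusted p = 0.157, blocked SE 0.16 and adjusted p = 0.0291). For Col3a1, Col11a1 and Col1a2 it was −1.21, −1.01 and −0.77, and none of these passed the adjusted test.

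**Figure D4:**
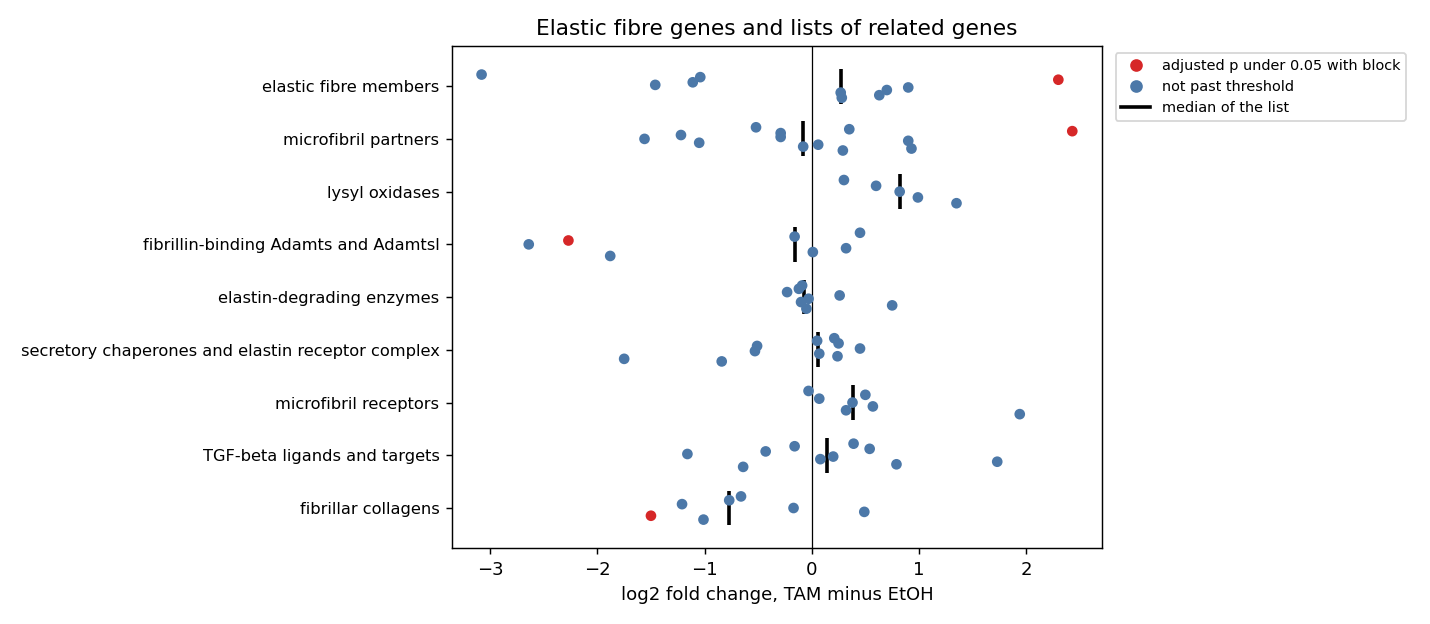
Log2 fold changes (TAM minus EtOH, limma) of each tested gene in the elastic fibre list and 8 lists of related genes. Red points passed the adjusted threshold in the blocked fit, blue points did not, and black ticks are list medians. The elastic fibre genes spread from −3.08 to 2.30, and the 5 lysyl oxidases all lie above 0.

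Some cell type markers also differed between the groups. The 7 smooth muscle markers, cells that also make elastin, summed to between 18444 and 57523 normalized counts in the EtOH and 28262 and 109740 in the TAM libraries, mostly Acta2. Acta2 had 55325, 16500 and 28438 in EtOH replicates 1, 2 and 3 and 25369, 99588 and 32774 in the TAM replicates. Its groups thus overlapped (limma adjusted p = 0.75), and the highest sum rests on TAM replicate 2. Without the block 4 of 6 tested, Acta2 not among them, had an unadjusted p under 0.05, and 3 with it. All of these were higher in TAM, against 6.67% and 8.64% of all genes tested. Of the 9 fibroblast markers, 5 were lower in TAM without overlap, Dcn and Lum among them, against 11.4% of all genes tested. Only 1 (Thy1) was higher without overlap, against 9.19%. The sum of the 9 ran from 1531134 to 1679926 in EtOH and from 684804 to 1127044 in TAM. The 7 endothelial markers summed to 144 to 465 in EtOH and 206 to 981 in TAM, with the 2 tested in opposite directions. Kdr was lower in TAM (log2 fold change −3.71, limma adjusted p = 0.0608, blocked 0.0488), and Flt1 had a log2 fold change of 2.15 (limma adjusted p = 0.525, blocked 0.152) with overlapping groups. The 8 macrophage and leukocyte markers summed to 213 to 553 and 387 to 555, with Emr1 at 0 in all libraries. Against 20.6% of all genes tested (9.19% with TAM above), 2 of the 5 tested did not overlap between groups. These were Lyz2 (log2 fold change 1.48, limma adjusted p = 0.141) and Csf1r (0.82, limma adjusted p = 0.388), both higher in TAM. The rest of those tested overlapped and went in both directions, with log2 fold changes of 1.08 for Cd14, −0.59 for Cd68 and −0.26 for Aif1. Melanocyte markers (6) summed to 273 to 811 and 219 to 688, and adipocyte markers (5) to 12.2 to 338 and 37.7 to 103. The part of these differences in the elastic fibre results was not tested.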

How the data were processed

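Per the labels and the study's methods, the authors mapped reads of poly(A) RNA to mm9 with TopHat, counted them per gene by htseq-count and tested them in edgeR after TMM scaling. The signal deposited by the authors is 1 table of normalized counts with 2 decimals, whose scaling and strand setting are not given in the sources used here. Its Ensembl, RefSeq and symbol columns name each gene. Libraries were grouped by title. The test was limma 3.58.1 (R 4.3.3) with an intensity trend on log2(value + 1), two-sided, over the 11877 genes that reached 1 c.p.m. in 3 or more libraries, called at an adjusted p under 0.05. It was checked on simulated data only for log2 differences of 3, larger than the estimate of every elastic fibre gene except Eln. Intervals are 95%.

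Replicate numbers come from the titles. Deviations from group means correlated across genes with Pearson r of 0.24, 0.29 and 0.42 within numbers 1, 2 and 3 and from −0.31 to 0.04 between numbers, so the 3 numbers were taken to pair the libraries. The deviations in a group cancel out, so positive values within numbers also push those between numbers down. No label states a pairing, so the block rests on the same data that it was used to test. Blocked values are given where they change a call and for some other genes, but not for all.

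Exon lengths and overlaps are from GENCODE vM1 on mm9, and gene positions on mm9 are as deposited. In GENCODE, Efemp2 runs on to 5481853 and Fbn1 to 125333729, past their deposited ends. Their counts and exon lengths may thus cover different extents, which bears on their values per kb. Named genes are the 10 elastic fibre genes, Cdkn1b, and in each related list the genes called with or without the block plus up to 3 with the largest absolute log2 fold change. One gene that this rule names is not reported here. Other genes in the text were chosen after their values were seen. The elastic fibre genes and lists were chosen with earlier results of these data known. Alternatives were other scalings, pseudocounts, filters, library weights, the block and leaving out libraries. Tables were made with Python 3.11.15 and pandas 2.3.3.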

Additional observations from a re-analysis of the deposited data

How the results depend on the processing

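The 10 genes gave 188 log2 fold changes under the alternatives, and 186 kept their direction. The exceptions were both for Fbln5, at −0.15 without EtOH replicate 2 and −0.06 with the replicate block and without pair 2, in a range up to 0.56. Both scalings kept every direction, the median over all genes moving from −0.03 to 0.08 with library-sum scaling and to −0.01 with median-ratio scaling. The count of genes called moved from 29 to 192 with the replicate block, 17 without a filter, 18 with at least 10 in every library, 742 with library weights, and between 0 and 17 without 1 library (0 without EtOH replicate 1, EtOH replicate 3 or TAM replicate 1, 2 without EtOH replicate 2, 5 without TAM replicate 2 and 17 without TAM replicate 3). Calls among the 10 moved from 0 to 1 (Fbn2) with the replicate block and to 4 (Eln, Fbn1, Mfap2 and Mfap4, adjusted p = 0.029, 0.0324, 0.0418 and 0.041 in limma) with library weights, and stayed at 0 without any 1 library. The calls among the related lists moved from 0 to 3 with the block and to 9 with weights. Alternatives chosen after seeing the data kept the replicate block. They gave 193 genes, 1 of the 10 and 4 in the related lists with library-sum scaling, 174, 1 and 3 with median-ratio scaling, and 104 to 924 genes (201, 924 and 104 without pairs 1, 2 and 3), 0 to 1 and 2 to 12 without 1 pair, the call among the 10 being Fbn2 wherever there was 1. The block changed the calls of Fbn2, Ltbp2, Adamtsl1, Col5a3 and the marker Kdr and no other call among the listed genes. The median log2 fold change of the 10 ranged from 0.00 (without EtOH replicate 2) to 0.44 (without TAM replicate 2). The Fbln2 to Fbln1 ratio difference was 0.26 without EtOH replicate 3 and 0.10 without TAM replicate 3, in a range from −0.58. Eln and Fbn2 did not pass a minimum of 10 in every library. The cause of these moves was not tested. The read depth of 5 of the 6 libraries is unknown, which limits what the low values of Eln and Fbn2 can show.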

Other observations

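Over the 6 libraries, the 5 genes whose log2 values ran most like those of Eln were Eif4b (Pearson r = 0.999), Cnot1, Fundc2, Tacc1 and Rnf138 (0.995 each). This is a description picked from all genes tested. The 6 points share their libraries and fall into the EtOH and TAM groups, which do not overlap for Eln. Eif4b, a translation initiation factor, had 8240, 13347 and 10085 normalized counts in EtOH replicates 1, 2 and 3 and 4664, 5574 and 5601 in the TAM replicates.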
